A study of Homo sapiens with 6 samples.

Results

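The epithelial membrane protein genes EMP1, EMP2 and EMP3 and their relative PMP22 form the family described here. Their values were taken from all probe sets whose platform gene symbol is one of these names, which gave 3 measured genes among 18132 and 9 probe sets among 49293. PMP22 is not analysed here. Transcripts were measured on 6 one-colour arrays of Huh7, an established human hepatocellular carcinoma line in logarithmic growth, with 3 arrays labelled KCa3.1 silenced, whose genotype is given as a knockdown, and 3 of control cells. KCa3.1 is a calcium-activated potassium channel encoded by KCNN4, and the comparison asks which transcripts differ when it is silenced. The labels state neither how the channel was silenced nor whether the replicates were separate cultures. The p-values therefore set each difference against the spread between these arrays, which may be only technical.

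The proteins of this family are small glycoproteins of the claudin fold that cross the plasma membrane several times and sit at cell contacts, in lipid domains and beside integrins. PMP22 is a major protein of compact peripheral myelin, and duplication of its gene causes a common inherited neuropathy. EMP1, EMP2 and EMP3 are expressed in many epithelia and in tumours, where they have been studied for adhesion, migration and receptor trafficking. EMP2 is known for its effects on integrins, focal adhesion kinase and caveolin, and EMP3 for its partnership with growth factor receptors.

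Each value is the authors' log2 RMA value, where RMA is a method that corrects background, normalises arrays by quantiles and summarises probes. The deposited values were centred per probe set near 0, so they give differences between arrays and hold no expression level. This also means that hepatocyte identity could not be checked by the level of its markers. Over all probe sets the correlation r lay between 0.405 and 0.671 for pairs of arrays with one label, and between -0.273 and 0.0676 for pairs with different labels. These r compare centred values and not expression levels, so a low r does not mean that the expression profiles were unlike.

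The targeted gene did not bear out the label. KCNN4, the mean of 3 probe sets, read -0.055, 0.089 and 0.011 in silenced replicates 1 to 3, against -0.0062, 0.13 and -0.073 in control replicates 1 to 3. The groups overlapped, and the log2 difference of -3e-04 had a 95% interval of -0.16 to 0.16 (limma adjusted p = 0.999, n = 3 each). With its most variable probe set alone, KCNN4 had a log2 difference of 0.021 (SE 0.092). Its signal relative to background is unknown. Every direction given below is therefore between arrays as labelled.

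The bases upstream of the annotated starts are shown because the 3 measured genes were all lower in the silenced-labelled arrays. They come from RefSeq on build GRCh38.p14 and cover the 250 bases before the first listed start of each gene, at chr12:13196476-13196725 on the plus strand for EMP1, chr16:10580599-10580848 on the minus strand for EMP2 and chr19:48325302-48325551 on the plus strand for EMP3. Capitals mark matches, on either strand, to any of 7 motifs. These were the AP-1 motif TGANTCA, the TEAD motif GGAATG, the E-box CACGTG bound by MYC, the GC box GGGCGG, the TATA box TATAAA, the CCAAT box as its name spells it and the EGR motif GCGNGGGCG, which can share letters with a GC box.
EMP1: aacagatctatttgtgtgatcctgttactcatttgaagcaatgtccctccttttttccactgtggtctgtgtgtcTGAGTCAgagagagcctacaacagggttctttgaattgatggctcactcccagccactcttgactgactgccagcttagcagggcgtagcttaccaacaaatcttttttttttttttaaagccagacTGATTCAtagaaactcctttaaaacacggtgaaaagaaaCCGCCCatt
EMP2: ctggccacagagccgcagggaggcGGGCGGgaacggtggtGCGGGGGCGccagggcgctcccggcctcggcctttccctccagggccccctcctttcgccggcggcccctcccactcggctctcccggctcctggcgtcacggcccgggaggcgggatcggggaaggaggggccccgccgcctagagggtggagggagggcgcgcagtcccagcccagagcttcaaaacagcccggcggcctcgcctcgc
EMP3: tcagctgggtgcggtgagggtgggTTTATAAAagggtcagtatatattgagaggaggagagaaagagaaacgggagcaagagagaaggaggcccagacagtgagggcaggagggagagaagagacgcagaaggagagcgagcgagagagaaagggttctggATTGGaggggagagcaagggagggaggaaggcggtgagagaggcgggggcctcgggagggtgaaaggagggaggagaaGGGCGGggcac

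The 3 windows differed in composition, with 42.4% G and C in EMP1, 77.2% in EMP2 and 59.2% in EMP3, where the median over 35116 promoter windows was 58%. The AP-1 motif occurred at 2 places in EMP1, beginning 175 and 48 bases before the start, and in neither of the other windows shown. It was present in 6.57% of all windows. The GC box was the only searched motif found in the windows of all 3 genes, and 42.6% of all windows hold it. EMP2 also held the EGR motif, present in 8.41% of windows, and EMP3 held a TATA box, matched on both strands in overlapping letters (10.7%), and a CCAAT box (32%). The TATA match of EMP3 lay 226 to 219 bases before the start. A second annotated start of EMP3, with its window at chr19:48325749-48325998, held none of the 7 motifs (0 matches). These matches describe letters and not occupied sites.

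All 3 measured members were lower in the silenced-labelled arrays, EMP3 by the widest margin, EMP1 next and EMP2 least. The family was chosen with this contrast known, since EMP3 was among the genes with the largest falls, so the members' differences are given as a description with no p-value. Calls of the members by the fit over all genes are likewise only described, beside the share of all genes called.

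EMP3 was measured by 1 probe set. It read -1.17, -1.41 and -1.17 in silenced replicates 1 to 3, against 0.14, 0.30 and 0.38 in control replicates 1 to 3. All 3 silenced-labelled arrays lay far below the lowest control array. The means were -1.25 ± 0.14 in silenced-labelled and 0.27 ± 0.12 in control arrays (SD, n = 3 each), a log2 difference of -1.52 (SE 0.087, 95% interval -1.72 to -1.33), or 2.87-fold lower. Ordered from the most negative log2 difference, EMP3 stood at place 10 of 18132 genes.

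EMP1, first described as a tumour-associated membrane protein, was the mean of 4 probe sets. It read -0.14, -0.22 and -0.18 in silenced replicates 1 to 3, against 0.25, 0.46 and 0.51 in control replicates 1 to 3. The silenced-labelled arrays lay close together below 0, and the groups did not overlap. The means were -0.18 ± 0.041 in silenced-labelled and 0.41 ± 0.14 in control arrays (SD, n = 3 each), a log2 difference of -0.59 (SE 0.075, 95% interval -0.75 to -0.42), or 1.5-fold lower. It stood at place 194 from the most negative difference.

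EMP2, the member tied to integrin and caveolin biology, was also the mean of 4 probe sets. It read -0.059, -0.16 and -0.029 in silenced replicates 1 to 3, against 0.16, 0.30 and 0.25 in control replicates 1 to 3. The groups did not overlap, with a narrow gap between silenced replicate 3 and control replicate 1. The means were -0.084 ± 0.071 in silenced-labelled and 0.24 ± 0.070 in control arrays (SD, n = 3 each), a log2 difference of -0.32 (SE 0.063, 95% interval -0.46 to -0.18), or 1.25-fold lower. It stood at place 716.

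**Figure D1:**
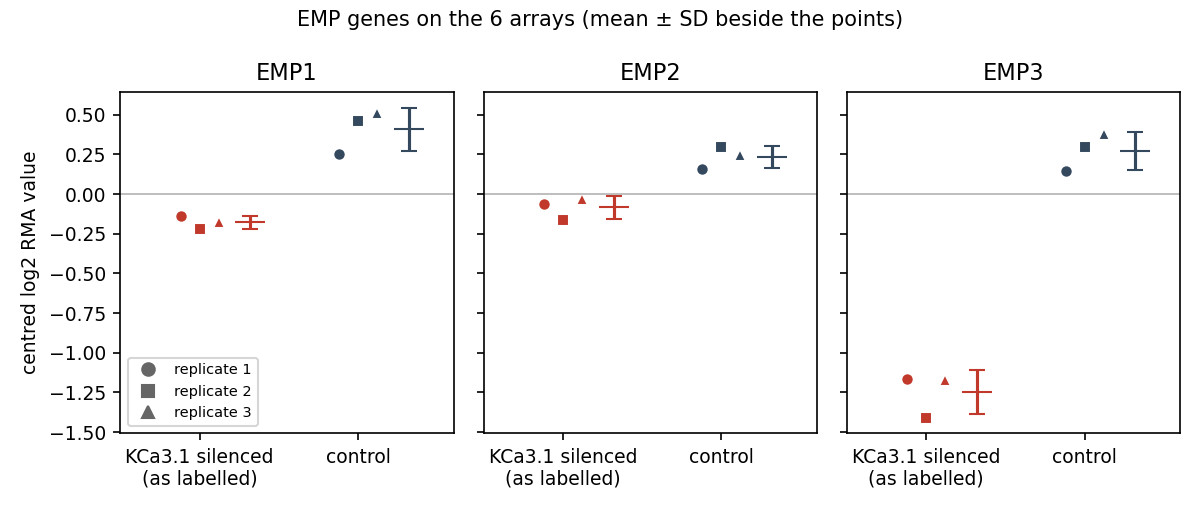
Centred log2 RMA values of EMP1, EMP2 and EMP3 on the 3 silenced-labelled (left in each panel) and 3 control arrays, 1 point per array with the replicate as the marker shape, and mean ± SD beside the points. The groups do not overlap in any of the 3 panels, and the silenced-labelled values of EMP3, between -1.41 and -1.17, are the lowest shown.

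By the limma fit over all genes, 3 of the 3 measured members were called lower, where 6.19% of all genes were called lower and 13.3% were called in either direction (adjusted p under 0.05, Benjamini-Hochberg). No overlap between the groups was seen in 3 of 3 members, where 14.4% of all genes were lower without overlap. Since the members were chosen from this contrast, nothing is read from these counts. The median log2 difference over all genes was -0.0058.

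**Figure D2:**
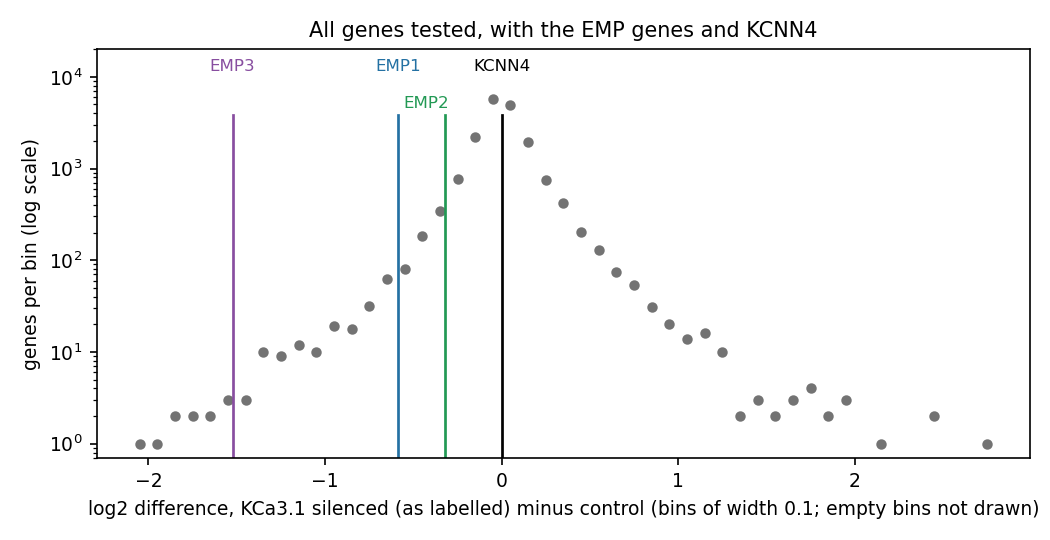
Number of genes per bin of the log2 difference, silenced-labelled minus control arrays, on a log scale (points), with vertical lines at the 3 measured members and at KCNN4. EMP3 at -1.52 lies in the far lower tail, EMP1 at -0.59 and EMP2 at -0.32 lie on the lower flank, and KCNN4 lies at the centre.

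The members shared the lowest array of each group, which the contrast between the groups does not set. In EMP1, EMP2 and EMP3 alike, silenced replicate 2 was the lowest of the silenced-labelled arrays and control replicate 1 the lowest of the control arrays. The same pair of arrays was lowest in 3743 genes, 20.6% of all those tested. Over all genes these arrays deviated together from their group means (r = 0.373), so the shared order is not particular to the family. The other arrays were ordered alike in EMP1 and EMP3 and differently in EMP2.

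The probe sets of a gene did not all show the same size of difference. All 9 probe sets of the family had a negative log2 difference, from -1.52 to -0.093, and 7 of them had groups that did not overlap, where 13% of all probe sets were lower without overlap. By the limma fit over all probe sets 6 of the 9 were called, against 4.85% of all probe sets called lower, which again is a description. An exact 0 on at least 1 array occurred in 4 of the 9, against 80.6% of all probe sets on the array.

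EMP1 varied most between its own probe sets. The probe set 11717565_s_at, designed on the reference mRNA and of a kind whose probes are shared by several transcripts, read -0.25, -0.53 and -0.33 in silenced replicates 1 to 3, against 0.62, 0.94 and 1.21 in control replicates 1 to 3. Its log2 difference was -1.29 (SE 0.14, 95% interval -1.62 to -0.97), close in size to that of EMP3. The other 3 EMP1 probe sets gave smaller log2 differences, -0.48 for 11717566_at, -0.31 for 11758781_at and -0.26 for 11717564_a_at.

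In 11758781_at the groups met at 0, which silenced replicate 1 and control replicate 1 both held. The gene value of EMP1 thus depends on how its probe sets are combined. Its log2 difference was -1.29 with the most variable probe set alone, -0.39 with the 2 specific probe sets and -0.35 without 11717565_s_at, a setting chosen after the values were seen. Specific here means only that the probe set name is a number followed by _at, with no letter between.

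The EMP2 probe sets were closer together, apart from 1 of them. The log2 differences were -0.49 for 11728709_a_at, -0.36 for 11728708_at and -0.34 for 11728707_a_at, each without overlap between the groups. The fourth, 11728706_x_at, some of whose probes can match other sequences, read -0.20, 0.080 and 0 in silenced replicates 1 to 3, against 0.047, 0.11 and 0 in control replicates 1 to 3. Its groups overlapped, and its log2 difference of -0.093 had a 95% interval of -0.28 to 0.099. With its 1 specific probe set, 11728708_at, EMP2 kept a log2 difference of -0.36 but was no longer called.

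**Figure D3:**
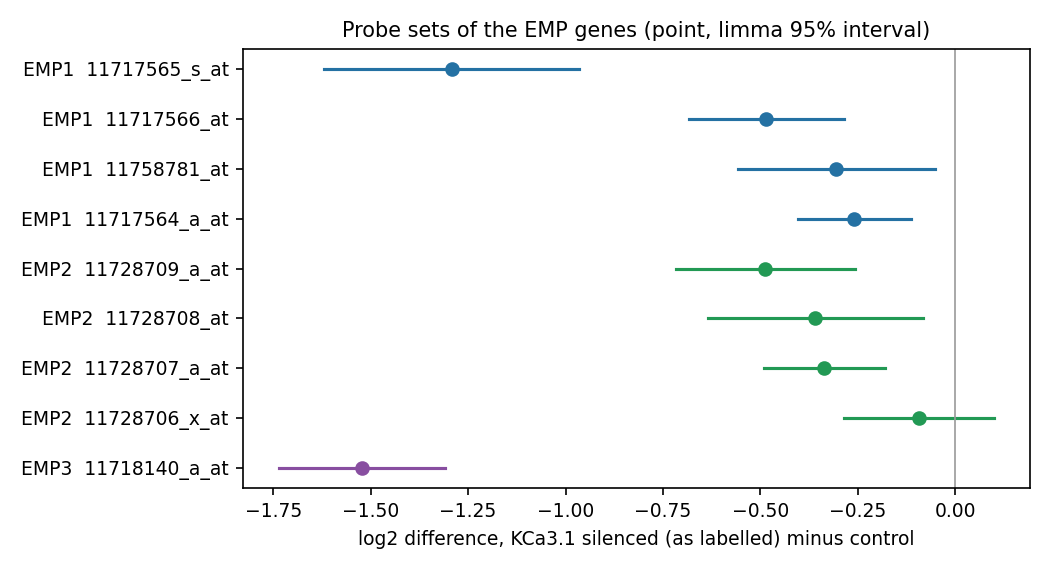
Log2 difference, silenced-labelled minus control arrays, for each of the 9 probe sets of EMP1, EMP2 and EMP3 (points) with limma 95% intervals (lines). All 9 points lie below 0, the interval of EMP2 11728706_x_at crosses 0, and EMP1 11717565_s_at at -1.29 stands apart from the other 3 EMP1 probe sets.

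No gene among the more distant relatives with the claudin fold passed the test. Of 18 such distant genes, which include the calcium channel gamma subunits, the p53 effector PERP and the lens protein gene LIM2, 0 passed the test and 18 did not (limma, adjusted p under 0.05, against 13.3% of all genes), with 1 at an unadjusted p under 0.05 and a median log2 difference of -0.022 against -0.0058 over all genes. The largest difference was that of CACNG4, an auxiliary subunit of glutamate receptors and calcium channels, at 0.21 (SE 0.084, limma adjusted p = 0.151). Without silenced replicate 1 it was 0.30 and passed (limma adjusted p = 0.0249).

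Among the claudins themselves, the barrier and pore proteins of tight junctions, 3 of 21 fell, 1 rose and 17 did not pass, where 13.3% of all genes were called and 6.19% were called lower. The median log2 difference was -0.055, against -0.0058 over all genes. A limma unadjusted p under 0.05 was held by 6 of the 21, where 4467 of all 18132 genes had one. CLDN1, a sealing claudin of liver and skin that also serves hepatitis C virus entry, read -0.022, -0.0083 and -0.0035 in silenced replicates 1 to 3, against 0.45, 0.35 and 0.44 in control replicates 1 to 3. Its log2 value fell by 0.42 with no overlap between the groups (SE 0.054, limma adjusted p = 0.00102). CLDN23 fell by 0.40 (SE 0.082, limma adjusted p = 0.013) and CLDN6, a claudin of embryonic and tumour tissue, fell by 0.39 (SE 0.092, limma adjusted p = 0.023). CLDN12 was the claudin that rose, by 0.32 (SE 0.060, limma adjusted p = 0.00742). CLDN23 no longer passed when control replicate 3 was left out (log2 difference -0.34), and CLDN6 no longer passed when any 1 of control replicates 2 and 3 and silenced replicates 2 and 3 was left out, with log2 differences between -0.41 and -0.30. Without control replicate 3, 2 of the 21 claudins passed, where 1734 of all 18132 genes did, against 2418 with every array kept. Beyond these 4 genes, CLDN14 passed without control replicate 1 (log2 difference -0.36) and CLDN16 without silenced replicate 1 (-0.26), with array weights (-0.22) and with its most variable probe set (-0.40).

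Of 19 genes known as binding partners or signalling partners of the EMP proteins and PMP22, 3 fell, 1 rose and 15 did not pass, where 13.3% of all genes were called and 6.19% were called lower. The median log2 difference was -0.073, against -0.0058 over all genes. A limma unadjusted p under 0.05 was held by 7 of the 19, where 4467 of all 18132 genes had one. CAV1, which encodes the caveolar coat protein caveolin and is regulated by EMP2 in other cells, had the largest difference of the list. It read -0.70, -0.77 and -0.70 in silenced replicates 1 to 3, against 0.55, 0.66 and 0.72 in control replicates 1 to 3. The groups lay far apart, and the log2 value of CAV1 fell by 1.36, with 4 of 4 probe sets past the threshold (SE 0.062, limma adjusted p = 4.07e-06). CAV1 stood at place 18 from the most negative difference. This list and the others were chosen with earlier results of these data known, so the p-values of their genes are descriptions.

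ITGB1, the integrin beta subunit paired with many alpha subunits, read -0.26, -0.22 and -0.24 in silenced replicates 1 to 3, against 0.21, 0.072 and 0.11 in control replicates 1 to 3. Its log2 value fell by 0.37 over 5 probe sets (SE 0.057, limma adjusted p = 0.00302). Its 1 probe set that is specific by name gave 0.0076, with overlap between the groups. The others gave -0.46, -0.58, -0.49 and -0.32, each without overlap. Each of these was past the threshold in the limma fit over all probe sets. FLOT1, which encodes a lipid raft protein, fell by 0.26 (SE 0.066, limma adjusted p = 0.0297), but it no longer passed in 6 of 13 alternatives, among them those that left out any 1 of control replicates 2 and 3 and silenced replicates 2 and 3, with log2 differences between -0.28 and -0.22. CD44, the hyaluronan receptor, rose by 0.39 (SE 0.088, limma adjusted p = 0.0187), but leaving out any 1 of control replicates 1 and 2 and silenced replicates 1 and 3 ended that call, with log2 differences between 0.31 and 0.39. Without control replicate 2, 2 of the 19 genes passed, where 1794 of all 18132 genes did. Without silenced replicate 3, 2 of the 19 likewise passed, where 1641 of all 18132 genes did.

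The other 15 partner genes did not pass the test by limma. P2RX7, the ATP-gated channel that binds EMP proteins, had a log2 difference of -0.021 (SE 0.088). PTK2 and SRC, which encode focal adhesion kinase and its partner kinase downstream of EMP2, had 0.096 (SE 0.053) and 0.031 (SE 0.050). The integrin chains of the PMP22 complex, ITGA6 and ITGB4, had 0.095 (SE 0.059) and -0.073 (SE 0.062). The receptors linked to EMP3 were TGFBR2 at 0.045 (SE 0.053), ERBB2 at -0.20 (SE 0.058, limma adjusted p = 0.0526) and EGFR at -0.13 (SE 0.052, limma adjusted p = 0.152). In ERBB2 and EGFR the groups did not overlap, while in TGFBR2 they did. TBC1D5, a regulator of receptor recycling that binds EMP3, had 0.091. ERBB2 passed with its most variable probe set, at a log2 difference of -0.46, with repeated quantile normalisation (-0.21) and with array weights (-0.19). HIF1A, which encodes a subunit of the hypoxia-inducible factor, had 0.26 and passed without control replicate 1 (0.34).

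**Figure D4:**
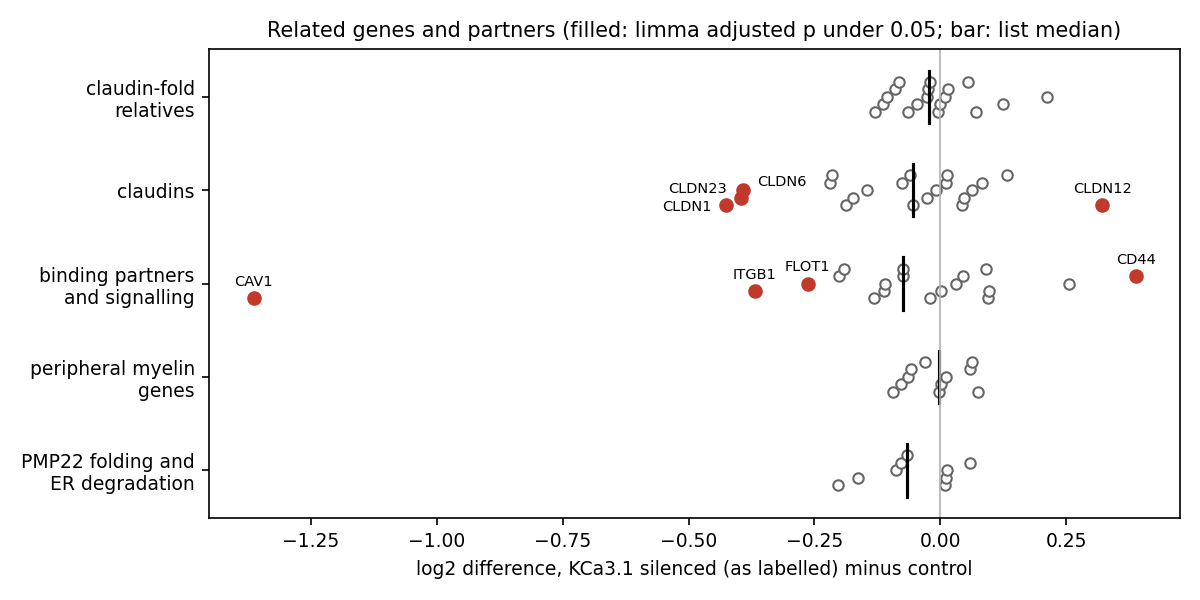
Log2 difference, silenced-labelled minus control arrays, of each measured gene of 5 lists of relatives and partners (points, filled where the limma adjusted p is under 0.05) with the list median (black bar). CAV1 at -1.36 stands apart on the lower side, and no gene of the claudin-fold relatives, the myelin genes or the PMP22 folding list is filled.

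Genes tied to PMP22 in other settings did not pass the test. Since 13.3% of all genes passed, nothing is read from the absence of calls in lists this small. Of 14 genes of peripheral myelin and its regulation 11 were measured, and 0 of the 11 passed by limma, 0 also at an unadjusted p under 0.05, with a median log2 difference of -0.0029. The widest was MAG, an adhesion protein of myelin-forming glia, at -0.093 (SE 0.093, limma adjusted p = 0.631). Of 10 genes for the folding, retrieval and degradation of PMP22 in the endoplasmic reticulum 9 were measured and 0 passed by limma, 2 at an unadjusted p under 0.05, with a median log2 difference of -0.066. RER1, a retrieval receptor of the early secretory pathway, had the widest at -0.20 (SE 0.060, limma adjusted p = 0.0571), and it passed without control replicate 1 (-0.25, limma adjusted p = 0.0287). CANX, the chaperone calnexin that binds PMP22, had -0.087 (SE 0.050).

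The genes next to the members on their chromosomes were also examined, a choice made after the members' values were seen. With 3 protein-coding neighbours on each side in the RefSeq order of GRCh38.p14, 18 were measured and 1 passed the test, where 13.3% of all genes did. That gene was ATF7IP2, beside EMP2 on chromosome 16, which rose by 0.26 (SE 0.056, limma adjusted p = 0.0163). None of the 6 neighbours of EMP1 on chromosome 12 (0 of 6) or of EMP3 on chromosome 19 (0 of 6) passed by limma, where 1 and 0 had an unadjusted p under 0.05. GSG1, another claudin-fold gene that lies directly beside EMP1, had a log2 difference of -0.026 (SE 0.061), and the immediate neighbours of EMP3, ODAD1 and TMEM143, had 0.14 (SE 0.10) and 0.019 (SE 0.059).

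The genes whose values over the 6 arrays were most like each member were found by Pearson correlation, which here is a description, since the arrays form 2 groups and share their normalisation. For EMP3 they were NES, which encodes the intermediate filament nestin (r = 0.9998), NCEH1, a cholesterol ester hydrolase gene (r = 0.9997), and BLCAP (r = 0.9995). Their log2 differences were -1.32, -1.21 and -1.35, against -1.52 for EMP3. For EMP1 they were PPCDC, an enzyme gene of coenzyme A synthesis (r = 0.999), the acyl-CoA thioesterase gene ACOT4 (r = 0.998) and the palmitoyltransferase gene ZDHHC7 (r = 0.997). PPCDC followed EMP1 over the arrays at a small size, with a log2 difference of -0.093 (SE 0.050). It did not pass the test (limma adjusted p = 0.314).

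For EMP2 they were SLC1A5, a glutamine transporter gene (r = 0.9994), NFIL3, which encodes a transcription repressor (r = 0.9991), and SMG8, which acts in nonsense-mediated mRNA decay (r = 0.9989). High values were not limited to the genes named. Of 18132 genes tested, 730 had r over 0.95 with EMP3, 705 with EMP1 and 711 with EMP2.

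Markers of hepatocytes and of other cell types were set beside these results. Among all genes 13.3% were called in either direction, and 1295 of 18132 were called higher. Of 5 measured hepatocyte markers 3 rose, AFP by 0.70 (limma adjusted p = 0.000241), APOA1 by 1.14 (limma adjusted p = 3.01e-05) and SERPINA1 by 0.40 (limma adjusted p = 0.00288), and 2 did not pass. Of those 2, ALB had a log2 difference of 0.16 without overlap between the groups (limma unadjusted p = 0.0182, adjusted p = 0.102). Of 4 fibroblast markers COL1A2 rose by 0.55 (limma adjusted p = 0.00202) and 3 did not pass. Of the measured Schwann cell, leukocyte and endothelial markers, 2, 3 and 3 in number, 0 passed by limma, and 1 leukocyte marker had an unadjusted p under 0.05. The part of these markers in the differences of the EMP genes was not tested.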

How the data were processed

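The values deposited by the authors come from RMA, per the submitters' processing notes, and lie near 0 in each probe set, so they had been centred. That the deposited values are log2 is taken from RMA's usual output, and the baseline of the centring is not given in the sources used here. The median over the 6 arrays is not 0 in 43597 of 49395 probe sets, so the baseline is not the median of these arrays alone. After 102 control probe sets were left out, 44988 of 49293 probe sets carried 1 gene symbol in the platform annotation, 1832 several and 2473 none here. Probe sets that name a single gene were averaged to give that gene's value.

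Differences are silenced minus control, tested with limma 3.58.1 (lmFit, eBayes) in R 4.3.3 over all 18132 genes or all probe sets, with Benjamini-Hochberg adjustment and a threshold of 0.05. SEs and intervals are limma's. The script was tested on simulated data. The number of arrays limits the precision.

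The members, lists and motifs were chosen with earlier results of these data known. Named genes are the members, KCNN4, up to 4 genes per list past the threshold or else the largest difference, and the 3 genes most like each member. Genes given in addition (other partners, neighbours, markers) were chosen for their role or place. Alternatives covered the probe set summary, specific probe sets, normalisation, variance moderation, array weights, a replicate block and leaving out each array. A filter on dim probe sets was not possible with centred values. Members of lists with no probe set, and PMP22, are not analysed here.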

Additional observations from a re-analysis of the deposited data

How the results depend on the processing

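EMP1, EMP2 and EMP3 stayed lower in the silenced-labelled arrays under every alternative that gave them a value, 15, 14 and 13 in number, and all stayed called except EMP2 with specific probe sets only (log2 difference -0.36). The EMP3 probe set, 11718140_a_at, has a name of another kind, so that alternative gave EMP3 no value. The name rule was not a test of how well its probes match EMP3. Leaving out 1 array at a time gave log2 differences of -0.66 to -0.53 for EMP1, -0.36 to -0.28 for EMP2 and -1.59 to -1.44 for EMP3. With specific probe sets only, 8324 genes were tested, and 570 were called against 2418, 332 higher against 1295 and 238 lower against 1123. In that setting 0 of 7 claudins and 0 of 3 partner genes passed, and 737 of 11849 probe sets were called against 5261 of 49293. Fewer probe sets and genes enter that setting by construction. Leaving out 1 array at a time gave 1641 to 2289 genes called in either direction, 736 to 1167 lower genes and 3252 to 4592 probe sets. In the lists it gave 2 to 5 claudins, 2 to 4 partner genes, 0 to 1 claudin-fold relatives and 0 to 1 genes of PMP22 folding. The last list had 1 gene past the threshold, RER1, with the median over probe sets and with array weights. The cause of these shifts was not tested.

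The replicate numbers were not taken to pair the arrays, since same-numbered arrays deviated from their group means with r of -0.096, -0.0694 and -0.0397. Across numbers, r was 0.381 for silenced replicate 1 with control replicate 3 and 0.373 for silenced replicate 2 with control replicate 1. It was 0.381 for silenced replicate 3 with control replicate 2, and -0.379 to -0.249 for the remaining pairs. No fit with these cross-number pairs was run, and what they share was not tested. With the replicate block 2065 genes were called, and EMP1, EMP2 and EMP3 kept their calls with log2 differences of -0.59, -0.32 and -1.52, while FLOT1 alone among the genes of the 5 lists lost its call. PMP22 is not analysed here, so no alternative was run for it.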
